A study of Homo sapiens with 16 samples.

Results

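Histone H3 acetylated at lysine 27, a mark of active promoters and enhancers, was described here at 10 human genes of the Hippo pathway's output: the coactivators YAP1 and WWTR1 (which encodes TAZ), the DNA-binding partners TEAD1, TEAD2, TEAD3 and TEAD4, and the target genes CCN1, CCN2, ANKRD1 and AMOTL2. The genes were chosen by their roles in the pathway, and are 10 of 20046 protein-coding genes measured in the same way. Each gene was described in 2 windows, one of 2.0 kb on either side of the start site of its reference transcript and one of the gene body extended by 50 kb on either side. In the second windows lay 89 of the 55219 regions that had a peak in at least 2 of 16 peak lists. The windows of WWTR1, TEAD2, TEAD3, TEAD4 and ANKRD1 also hold start sites of other protein-coding genes (among them TM4SF4 for WWTR1, DKKL1 for TEAD2, FANCE for TEAD3, TSPAN9 for TEAD4 and RPP30 for ANKRD1), so peaks there cannot be assigned to the named gene alone.

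YAP and TAZ are transcriptional coactivators without a DNA-binding domain of their own. When the Hippo kinases MST and LATS are active, YAP and TAZ are phosphorylated and held in the cytoplasm or degraded. Otherwise they enter the nucleus, bind TEAD proteins at sites with the core letters GGAATG, often beside AP-1 sites, and raise the transcription of genes such as CCN1, CCN2 and ANKRD1. In breast cancer cells of mesenchymal character this output is known to be high.

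The 16 lists came from 2 human triple-negative breast cancer lines, MDA-MB-231 and Hs578T. Each line was used as control cells and as cells in which Fn14 (TNFRSF12A, the receptor of the cytokine TWEAK) had been disrupted with CRISPR guides and an inducible Cas9. All groups were starved for 8 h. One arm of each was then given 10 ng/ml of TWEAK over 48 h, with fresh cytokine at 24 h, and each of the 8 groups of line, genotype and treatment had 2 lists. The Fn14 KO cells were picked by western blotting and checked by Sanger sequencing, and the study lists genotyping primers for its CRISPR clones. How many clones each Fn14 KO line rests on is not given in the sources used here. The methods call the replicates biological and state in general that work with cell lines was repeated on different days, and which list came from which day is not given. A peak within 2.0 kb of the start sites of VIM, ZEB1, FN1, CAV1 and CD44, genes of mesenchymal-type breast cancer cells, was present in 16 of 16 lists. ESR1, PGR and GATA3, genes of luminal cells, had such a peak in 0 lists, as did the leukocyte genes PTPRC and CD3E, while FOXA1 had one in 2 lists and ERBB2 in 12.

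A list held 39544 to 47197 peaks over 64.2 to 88.9 Mb, with no read counts, so that sequencing depth is unknown. The value used for height was fold enrichment over input as the peak caller gave it, a single value for each whole broad peak. At CCN2, peaks joined over the start site and an upstream element read 7.62 to 13.2. In other lists that element alone read 13.1 to 20.04. The value thus depends on where a peak's ends were called, and the part of this in the changes below was not tested. Its median over all peaks of a list was 5.53 to 5.89 in MDA-MB-231 control lists and 4.998 to 5.21 in MDA-MB-231 Fn14 KO lists, against 5.18 to 5.47 and 5.19 to 5.45 in the control and Fn14 KO lists of Hs578T. The median −log10 q moved with it in MDA-MB-231 (9.44 to 10.8 in control and 5.80 to 7.69 in Fn14 KO lists), and its part in the differences between genotypes below was not tested. The start site of TNFRSF12A had a peak in 16 of 16 lists (fold enrichment 16.2 to 38.2). Acetylation at a start site does not read out small deletions in a coding exon, so these data hold no check of the knockout.

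The sequences that the results turn on are shown first. The promoters of CCN2 and ANKRD1 are given because they are textbook YAP and TEAD targets and carry TEAD letters next to their starts. The RefSeq promoters used held none for CCN1, another such target, or for TEAD1 and TEAD4, so these were not searched. The 4 other stretches are from the 3 regions that appeared with TWEAK in both control lines and from the region with the largest rise. Other regions that rose are not printed. Promoters are the 250 bases before the RefSeq start (GRCh38.p14, minus strand for both genes; CCN2 chr6:131951373-131951622 and ANKRD1 chr10:90921088-90921337). Capitals mark the TEAD core GGAATG (or CATTCC on the other strand) and the AP-1 letters TGANTCA, searched on both strands in each promoter.
CCN2: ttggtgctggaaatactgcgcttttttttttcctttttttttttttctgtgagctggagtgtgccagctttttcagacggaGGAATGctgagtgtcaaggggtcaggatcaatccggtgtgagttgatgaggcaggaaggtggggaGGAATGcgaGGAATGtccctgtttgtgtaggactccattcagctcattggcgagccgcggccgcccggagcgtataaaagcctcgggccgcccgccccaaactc
ANKRD1: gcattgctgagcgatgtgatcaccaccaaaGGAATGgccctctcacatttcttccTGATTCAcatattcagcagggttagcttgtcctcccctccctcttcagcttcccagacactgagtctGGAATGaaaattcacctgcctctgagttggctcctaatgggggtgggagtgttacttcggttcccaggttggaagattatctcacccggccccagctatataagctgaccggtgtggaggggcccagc

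The CCN2 promoter held 3 TEAD matches and the ANKRD1 promoter 2 TEAD matches and 1 AP-1 match, where 11.9% and 6.57% of 35116 RefSeq promoters of the same length held at least 1. One YAP1 promoter match and 1 match in 1 of the 2 AMOTL2 promoters were found, and 0 in the listed promoters of WWTR1, TEAD2 and TEAD3. The stretches below are 300 bases of hg38, plus strand. They lie at chr11:12685951-12686250 (TEAD1 region 3), chr11:12731794-12732093 (TEAD1 region 6), chr3:149551565-149551864 (WWTR1 region 8) and chr12:2911910-2912209 (TEAD4 region 1), with regions numbered along the chromosome within each gene's window. The first 3 lie in introns of the named gene, the last in the body of TULP3, and none overlaps a protein-coding exon.
TEAD1 region 3: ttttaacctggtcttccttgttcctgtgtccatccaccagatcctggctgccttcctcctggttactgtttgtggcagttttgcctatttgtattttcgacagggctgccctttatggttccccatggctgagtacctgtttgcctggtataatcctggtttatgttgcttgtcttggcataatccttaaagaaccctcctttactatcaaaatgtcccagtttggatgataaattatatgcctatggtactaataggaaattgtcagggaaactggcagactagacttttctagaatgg
TEAD1 region 6: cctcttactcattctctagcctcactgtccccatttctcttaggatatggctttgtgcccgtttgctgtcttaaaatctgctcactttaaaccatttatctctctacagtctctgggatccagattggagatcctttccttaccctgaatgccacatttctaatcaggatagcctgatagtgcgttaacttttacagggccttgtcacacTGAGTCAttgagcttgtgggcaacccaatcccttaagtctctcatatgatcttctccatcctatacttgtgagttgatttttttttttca
WWTR1 region 8: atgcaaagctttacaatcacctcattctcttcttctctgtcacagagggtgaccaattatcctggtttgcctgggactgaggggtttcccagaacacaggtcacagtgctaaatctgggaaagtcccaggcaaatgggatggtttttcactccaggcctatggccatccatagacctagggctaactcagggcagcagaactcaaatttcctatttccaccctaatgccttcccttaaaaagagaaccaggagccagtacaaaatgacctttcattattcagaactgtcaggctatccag
TEAD4 region 1: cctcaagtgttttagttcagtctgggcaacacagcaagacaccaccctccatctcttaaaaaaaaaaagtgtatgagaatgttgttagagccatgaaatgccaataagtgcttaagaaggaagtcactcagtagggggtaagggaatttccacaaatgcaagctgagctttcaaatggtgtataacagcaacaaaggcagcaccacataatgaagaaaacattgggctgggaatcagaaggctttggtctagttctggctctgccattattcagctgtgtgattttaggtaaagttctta

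Of these, TEAD1 region 6 held 1 AP-1 match and the others none, and no TEAD match was found in the 4. Regions not printed that rose with TWEAK in the fit described below were searched in the same way. AMOTL2 region 3, TEAD1 regions 8 and 9 and YAP1 regions 5 and 8 held 1 AP-1 match each, and the rest none. AMOTL2 region 1 held 3 TEAD matches, and the rest none. The stretch searched in each region was 300 bases centred on the longest part covered by the most lists. Of the 89 regions, 13 (14.6%) held a TEAD match there and 21 (23.6%) an AP-1 match, beside 18.4% and 22.7% of all 55219 regions (4.98% held both). A match is a description of letters in a window and not a binding site.

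The first question was how acetylation at these genes stood in untreated control cells. All 10 genes had a peak at the start site in all 16 lists. In the order of fold enrichment at the start site, CCN1, which encodes a secreted matricellular protein, stood at the top, with 38.1 and 38.2 in the untreated MDA-MB-231 control lists and 33.5 and 28.8 in those of Hs578T. YAP1 followed with 24.6 and 27.2 in MDA-MB-231 and 19.7 and 20.1 in Hs578T, then WWTR1 with 21.9 and 22.5, and 19.2 and 16.5. TEAD4 read 18.1 and 19.0, and 15.9 and 14.5. These 4 genes kept this order in both lines, without overlap of their untreated control values. The other TEAD genes were lower and ordered TEAD1 (11.6 and 12.2 in MDA-MB-231, 8.30 and 7.67 in Hs578T), TEAD3 (8.82 and 10.8, 6.97 and 5.78) and TEAD2 (6.91 and 7.43, 4.76 and 3.52) in both lines, and these 3 did not overlap with each other. TEAD2 shares its peak with the start of DKKL1. AMOTL2, which encodes a junctional protein that binds YAP, read 13.1 and 10.6 in MDA-MB-231 and 7.58 and 7.49 in Hs578T. The values of CCN2 overlapped with those of AMOTL2 and of TEAD1 in both lines, so its place among them is not settled.

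Between the lines, 7 of the 10 genes passed the test at the start site (limma across all genes, Benjamini-Hochberg adjusted p under 0.05), where 30.7% of all genes did and where the median of all genes was itself lower in Hs578T by a log2 difference of −0.21. ANKRD1, which encodes a cardiac ankyrin repeat protein, was the 1 member that was higher in Hs578T. Its fold enrichment was 8.10, 9.42, 9.19 and 9.73 in the MDA-MB-231 control lists (untreated, then TWEAK), 8.00, 8.59, 6.98 and 7.17 in MDA-MB-231 Fn14 KO lists, 15.1, 13.2, 12.7 and 15.4 in the Hs578T control lists and 15.7, 12.5, 14.98 and 13.6 in Hs578T Fn14 KO lists. The 8 lists of the one line did not overlap with the 8 of the other, and the untreated control difference was a log2 difference of 0.63 (SE 0.12, limma adjusted p = 0.00333), or 0.84 above the median of all genes. The 6 that were lower in Hs578T were TEAD1 (−0.52), TEAD2 (−0.68), TEAD3 (−0.55), YAP1 (−0.36), CCN2 (−0.54) and AMOTL2 (−0.58). Relative to the median of all genes these differences were −0.15 for YAP1 and −0.31 to −0.47 for the other 5, and once lists were scaled to their median fold enrichment the calls of YAP1 (adjusted p = 0.0597) and CCN2 (adjusted p = 0.0818) were lost. Length covered by peaks over the extended body differed between the lines at 1 member beside 5.31% of all genes. CCN1 had 34.6 and 37.4 kb covered in MDA-MB-231 and 46.4 and 45.9 kb in Hs578T, untreated control cells in both cases (log2 difference 0.35, SE 0.08, limma adjusted p = 0.0222).

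**Figure D1:**
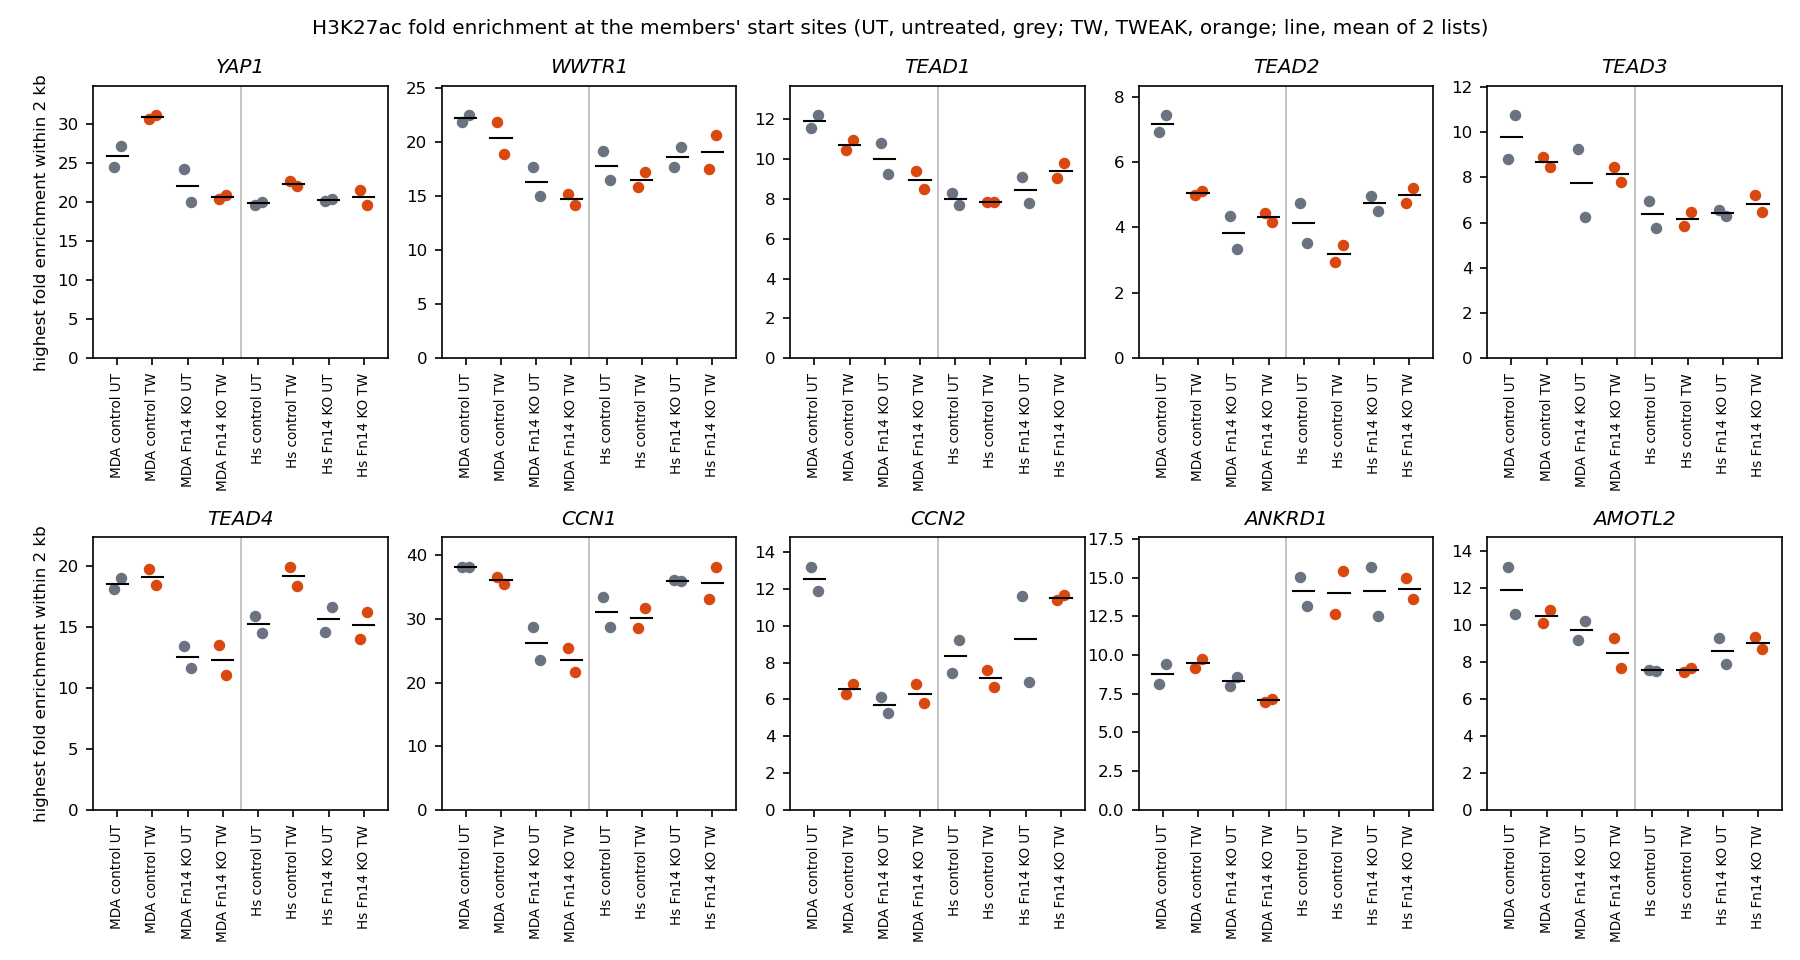
Fold enrichment over input of the highest peak within 2.0 kb of the start site of each gene, one point per list on a linear axis starting at 0, with the mean of 2 lists as a line (UT, untreated, grey; TW, TWEAK, orange). CCN1 has the highest values, ANKRD1 is higher in all 8 Hs578T lists than in the 8 MDA-MB-231 lists, and in MDA-MB-231 control cells CCN2 falls with TWEAK from 13.2 and 11.9 to 6.27 and 6.85.

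The main question of the design was the effect of TWEAK in cells that have Fn14. At the start sites, 2 of the 10 genes, CCN2 and TEAD2, passed the test in control cells, both lower, where 17.5% of all genes were called. CCN2 encodes connective tissue growth factor, a secreted matricellular protein. Its start-site fold enrichment was 13.2 and 11.9 in untreated and 6.27 and 6.85 in TWEAK-treated MDA-MB-231 control lists, and 7.46 and 9.22 against 7.62 and 6.70 in those of Hs578T. The treated lists were lower without overlap in MDA-MB-231 and overlapped in Hs578T, and the change over both lines was −0.52 on the log2 scale (SE 0.13, limma adjusted p = 0.0174). In Fn14 KO cells CCN2 read 6.15 and 5.24 against 6.82 and 5.82 in MDA-MB-231, and 11.6 and 6.93 against 11.4 and 11.7 in Hs578T.

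The TWEAK effect on the CCN2 start site differed between genotypes (−0.74, SE 0.18, limma adjusted p = 0.0307), 1 member beside 7.32% of all genes. This value moved with how the peaks were called. In 7 of 16 lists a single broad peak joined the start site with an element just upstream, and its fold enrichment was 7.62 to 13.2. In the other 9 lists the start site had a peak of its own, with 5.24 to 7.46, and the element another, with 13.1 to 20.04. The 2 untreated MDA-MB-231 control lists had the joined peak and the 2 TWEAK-treated lists the separate ones. The MDA-MB-231 Fn14 KO lists, untreated and treated, also had separate peaks, and Hs578T lists of each genotype held both kinds.

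Fold enrichment was also summed over the whole CCN2 region (chr6:131946853-131956100) and divided by its width. This measure counts bases outside called peaks as 0, so it too is lower where a joined peak is called as separate ones. MDA-MB-231 control lists read 12.6 and 11.5 untreated against 6.13 and 6.56 with TWEAK, and the Hs578T control lists 7.20 and 8.54 against 5.95 and 5.32. In MDA-MB-231 the difference lay in the covered bases: peaks covered 8.83 and 8.93 kb of the region untreated and 5.27 and 4.89 kb with TWEAK, while the mean fold enrichment of the covered bases was 13.2 and 11.9 against 10.8 and 12.4, with overlap. In Hs578T the covered length overlapped (6.75 and 8.56 against 7.22 and 5.57 kb) and the mean of the covered bases was 9.85 and 9.22 against 7.62 and 8.83. The limma fit called the summed measure for TWEAK in control cells (−0.62, SE 0.14, adjusted p = 2.36e-04) and between genotypes (−0.56, adjusted p = 0.0313), and both calls depend on the joining of peaks as the start-site calls do. Lower acetylation at the CCN2 start and a change in how peaks were joined cannot be told apart in these peak lists. By the highest fold enrichment anywhere in the region, which in the separate lists is that of the upstream element, CCN2 did not pass the test in either comparison. After TWEAK in MDA-MB-231 control cells the element was called as a separate peak, while the bases between it and the gene left the peak list. The separate peak had a higher value than the joined one, and whether the element itself rose was not tested.

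**Figure D2:**
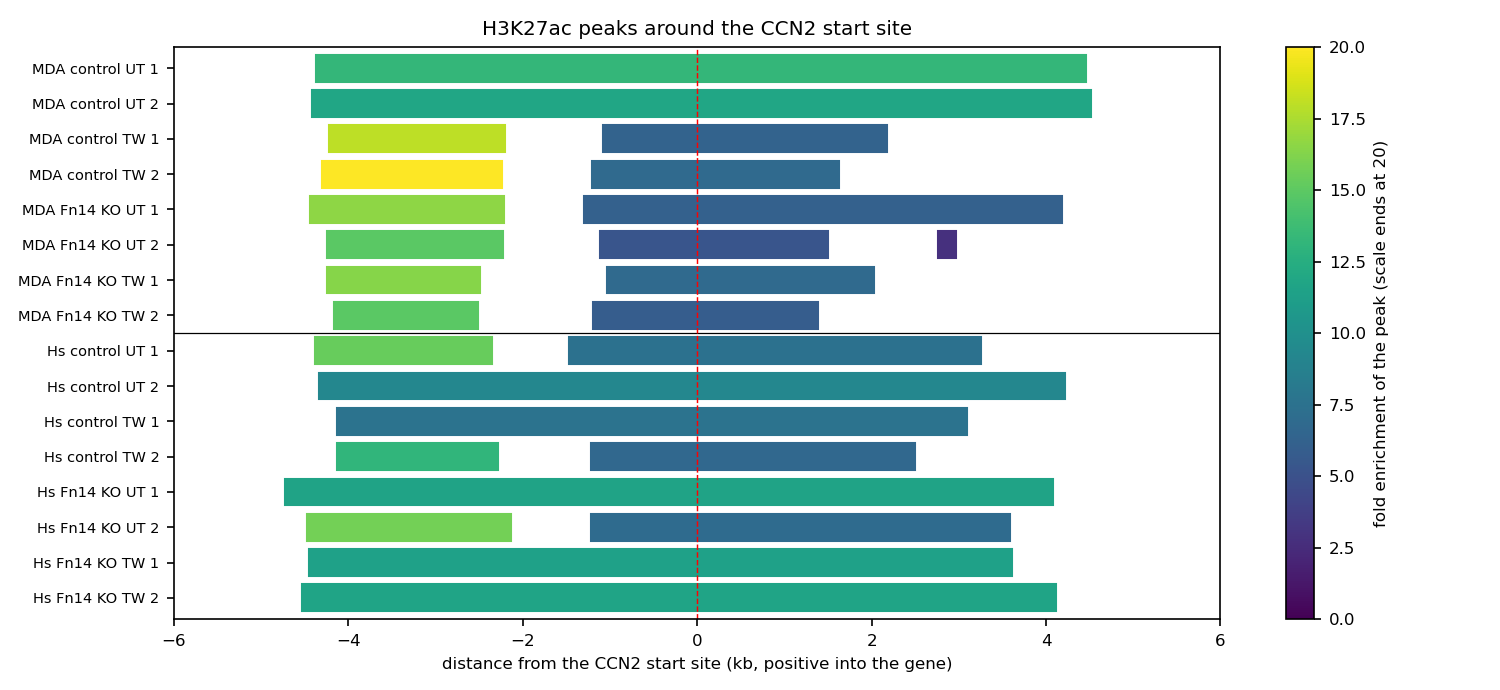
Peaks over the CCN2 region in each of the 16 lists, drawn to scale as bars at their distance in kb from the CCN2 start site, with colour for fold enrichment over input (UT, untreated; TW, TWEAK; dashed line, start site). In 7 lists a single bar spans the start site and the upstream element, and in 9 lists they are separate, among them both TWEAK-treated MDA-MB-231 control lists.

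TEAD2 read 6.91 and 7.43 in untreated and 4.99 and 5.11 in TWEAK-treated MDA-MB-231 control lists, and 4.76 and 3.52 against 2.93 and 3.46 in those of Hs578T. Treated lists lay below untreated ones in both lines (log2 change −0.36, SE 0.10, limma adjusted p = 0.0355), at a peak that TEAD2 shares with DKKL1. The call was lost without any one MDA-MB-231 control list or replicate 1 of either Hs578T control group (−0.45 to −0.27). YAP1 went the other way without passing the test. Its start-site fold enrichment was 24.6 and 27.2 against 30.7 and 31.2 in MDA-MB-231 control lists, and 19.7 and 20.1 against 22.7 and 22.0 in those of Hs578T, so the treated lists lay above in both lines, with a log2 change of 0.21 (SE 0.07, limma adjusted p = 0.0501). The other 7 genes did not pass: 4 of 10 members had an unadjusted p under 0.05.

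In length covered by peaks, 2 of 10 members passed in control cells, where 17.9% of all genes did: YAP1 and CCN2, both shorter after TWEAK. YAP1 had 18.1 and 22.7 kb covered untreated and 17.4 and 18.2 kb with TWEAK in MDA-MB-231, and 23.0 and 23.7 against 17.0 and 17.7 kb in Hs578T (log2 change −0.29, SE 0.08, limma adjusted p = 0.0259). The lists overlapped in MDA-MB-231 and not in Hs578T. The YAP1 call was lost without any one of the 4 Hs578T control lists, or without replicate 2 of the untreated or either TWEAK-treated list of MDA-MB-231 control cells (changes of −0.37 to −0.21). The YAP1 locus thus had a shorter covered length and, at its start, a value that was not lower. CCN2 had 9.28 and 9.89 against 5.75 and 4.89 kb in MDA-MB-231, and 7.57 and 9.54 against 8.09 and 6.37 kb in Hs578T (−0.48, SE 0.13, limma adjusted p = 0.0210), a call lost without any one of the replicate 2 lists of these 4 control groups (−0.56 to −0.41).

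The remaining covered lengths changed by −0.25 to 0.20 on the log2 scale with adjusted p of 0.0831 to 0.4503. All TWEAK lists lay below all untreated lists of the same line, in both lines, for TEAD2, TEAD3 and ANKRD1 (19.3% of all genes), and above for TEAD4 (10.9%). TEAD4 had 4.389 and 4.677 against 5.067 and 4.681 kb in MDA-MB-231 and 5.43 and 5.81 against 6.72 and 7.70 kb in Hs578T. The TEAD4 order in MDA-MB-231 thus rested on 4.681 against 4.677 kb, and TEAD4 lay below instead of above, in both lines, with peaks of at least the pooled median −log10 q and with an extension of 10.0 kb. The median change of the 10 members was −0.15, beside −0.05 for all genes.

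**Figure D3:**
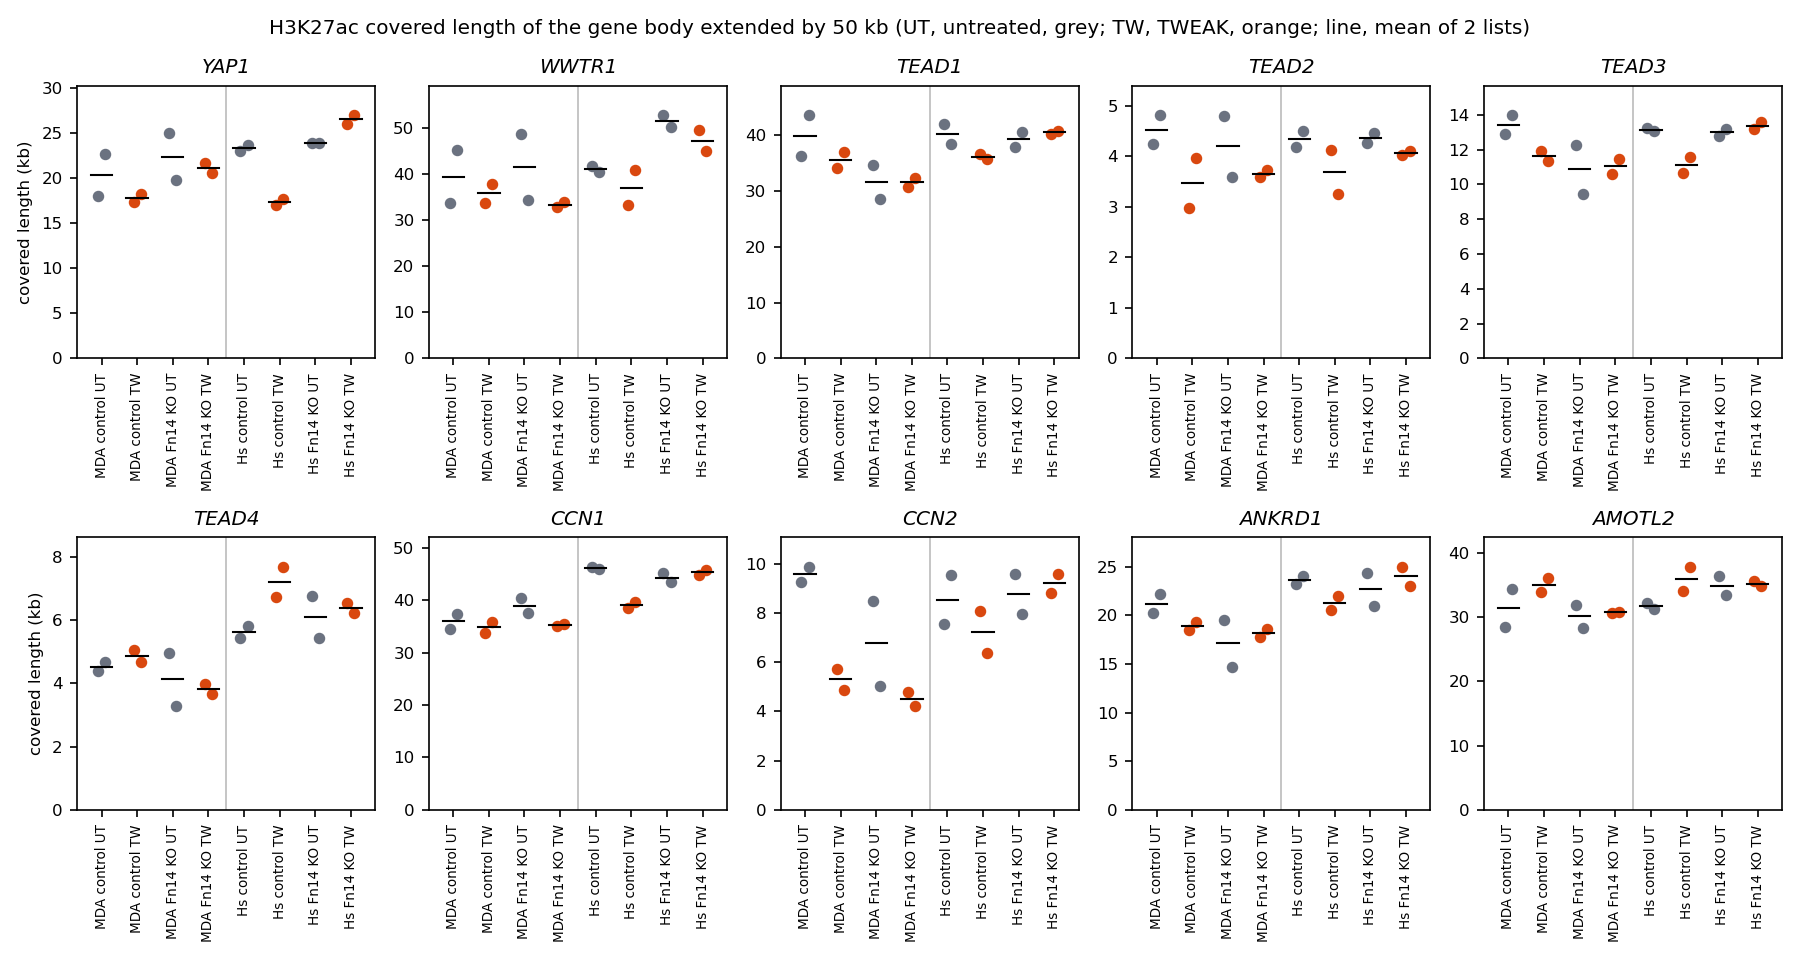
Length in kb covered by H3K27ac peaks in the gene body extended by 50 kb on either side, one point per list on a linear axis starting at 0, with the mean of 2 lists as a line (UT, untreated, grey; TW, TWEAK, orange). YAP1 in Hs578T control cells falls from 23.0 and 23.7 kb to 17.0 and 17.7 kb with TWEAK, and CCN2 in MDA-MB-231 control cells from 9.28 and 9.89 kb to 5.75 and 4.89 kb.

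Within the loci, the largest change was in TEAD1. The 51 of 89 regions that had a peak in all 16 lists (57.3%, beside 51.3% of all regions) were compared by their highest fold enrichment in a fit over the 28337 such regions of the genome. With TWEAK in control cells, 13 of the 51 rose and 8 fell, where 26.3% of all regions rose and 16.2% fell. The median fold enrichment of whole lists was also higher with TWEAK in control cells (5.53 and 5.604 against 5.89 and 5.88 in MDA-MB-231, 5.27 and 5.18 against 5.47 and 5.45 in Hs578T), and with lists scaled to their median 9 rose and 10 fell. With fold enrichment summed over the region, 8 rose and 9 fell. TEAD1 held more of the rises than any other member, with 5 rises and 1 fall among 11 regions. YAP1 had 3 and 1 among 6, AMOTL2 2 and 0 among 4, CCN1 1 and 2 among 8, WWTR1 1 and 1 among 9, and TEAD3 1 and 0 among 4. TEAD2, TEAD4 and ANKRD1 had 1 fall each and CCN2 none. Counted by order alone, 12 regions had all TWEAK lists above all untreated lists in both lines (27.2% of all regions did) and 7 had them below (17.0%).

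TEAD1 region 3 (chr11:12683608-12689664) lies in an intron 12.2 kb inside the gene. Its fold enrichment was 4.35 and 4.16 in untreated and 13.0 and 13.7 in TWEAK-treated MDA-MB-231 control lists, and 3.44 and 4.07 against 13.6 and 11.9 in those of Hs578T. In Fn14 KO cells it was 5.57 and 4.88 against 4.91 and 5.02 in MDA-MB-231, and 3.91 and 3.23 against 3.0 and 3.58 in Hs578T. The 4 TWEAK-treated control lists thus stood above the other 12 lists, at 3.15 times the untreated mean in MDA-MB-231 and 3.39 times in Hs578T, while the ratios in Fn14 KO cells were 0.95 and 0.922. On the log2 scale the change in control cells was 1.49 (SE 0.10, limma adjusted p = 1.59e-21) and the difference between genotypes 1.57 (SE 0.14, adjusted p = 8.79e-15). TEAD1 encodes a TEAD protein that is widely expressed. Its start-site values (11.6 and 12.2 against 10.5 and 10.96 in MDA-MB-231, and 8.30 and 7.67 against 7.84 and 7.82 in Hs578T) did not pass the test.

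**Figure D4:**
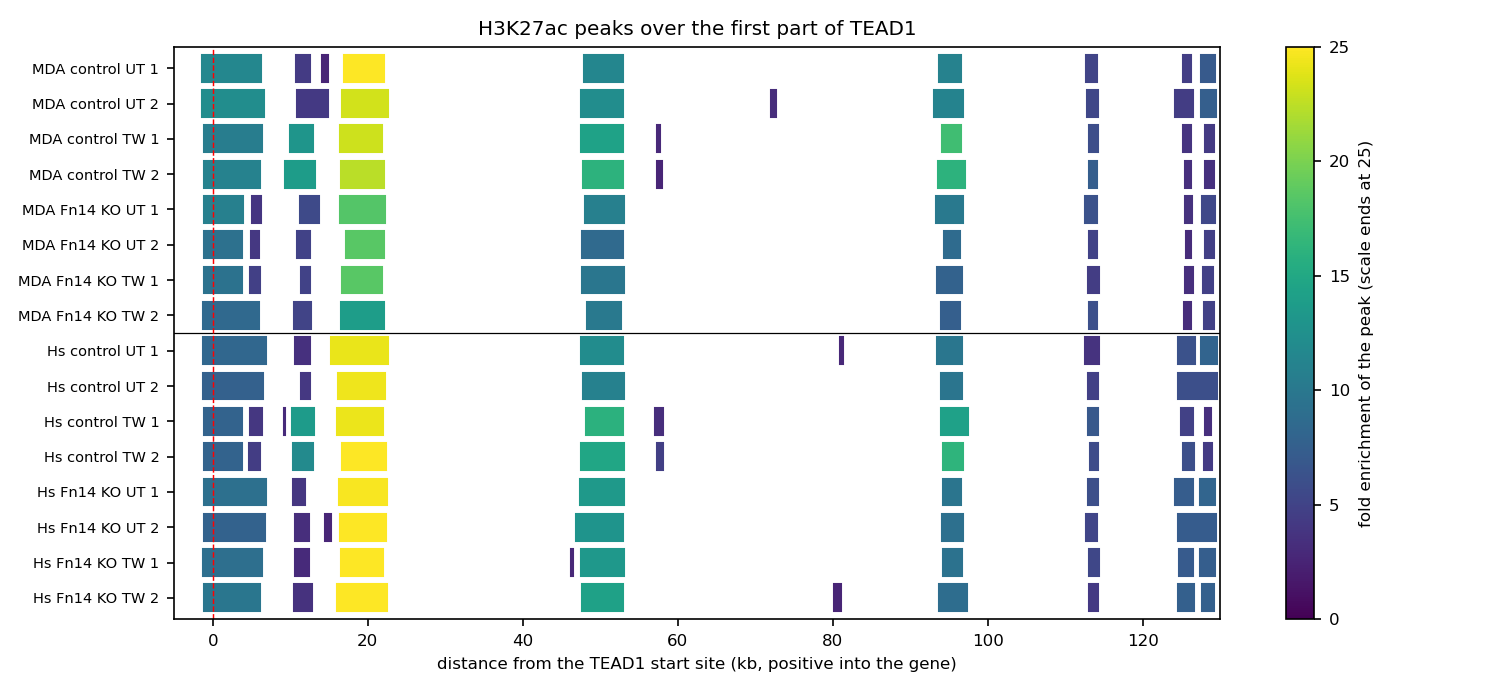
Peaks over the first part of TEAD1 in each of the 16 lists, drawn to scale as bars at their distance in kb from the TEAD1 start site (dashed line), with colour for fold enrichment over input (UT, untreated; TW, TWEAK). In region 3, at 12.2 kb, the bars of the 4 TWEAK-treated control lists stand for 11.9 to 13.7 and those of the other 12 lists for 3.0 to 5.57, and the small peaks of region 6, at 57.6 kb, are in the 4 TWEAK-treated control lists only.

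Further inside TEAD1, region 8 (chr11:12767493-12771835, 95.2 kb from the start) read 10.97 and 11.2 against 17.4 and 16.1 in MDA-MB-231 control lists, and 9.82 and 9.68 against 14.2 and 16.2 in those of Hs578T. The lists did not overlap in either line, Fn14 KO lists lay at 7.42 to 10.1, and the change was 0.57 (SE 0.09, limma adjusted p = 3.91e-07) with a difference between genotypes of 0.72 (adjusted p = 9.31e-06). Region 5 rose by 0.37, region 9 by 0.39 and region 16 by 0.26 on the log2 scale, of which the call of region 9 was lost when fold enrichment was summed (0.02) and that of region 16 when lists were scaled (0.20). Region 16 was at 1.4 times the untreated mean in MDA-MB-231 control cells and 1.08 times in those of Hs578T. In Fn14 KO cells it was at 1.18 and 1.2 times, and its call was also lost without any one of 4 lists. Region 10 (chr11:12798580-12803984) went against the regions that rose. It read 6.97 and 7.46 against 4.22 and 3.44 in MDA-MB-231, and 7.95 and 6.02 against 4.84 and 6.02 in Hs578T, a change of −0.54 (SE 0.10, limma adjusted p = 1.15e-05). The fall was clear of overlap in MDA-MB-231 only, as a treated and an untreated Hs578T list both read 6.02. Called changes within this one gene thus went in both directions.

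The regions of YAP1 split in the same manner. Region 8 (chr11:102175872-102180408, in an intron 67.7 kb from the start) read 10.2 and 11.9 against 14.7 and 15.5 in MDA-MB-231 control lists, and 14.7 and 15.1 against 20.1 and 20.8 in those of Hs578T (0.43, SE 0.09, limma adjusted p = 8.91e-05). The MDA-MB-231 Fn14 KO lists lay at 8.96 to 11.1, the Hs578T ones at 13.99 to 19.95, and the difference between genotypes was 0.61 (adjusted p = 1.44e-04). YAP1 region 1, the start site, had the same values as above and passed in this fit over regions (0.21, adjusted p = 0.0419), region 5 rose by 0.26, and region 7 fell by 0.26 on the log2 scale. The calls of regions 1 and 5 were lost once lists were scaled to their median, and that of region 1 also without any one of 9 of the 16 lists. WWTR1, the TAZ gene, had smaller changes. Region 10, which spans 22.6 kb of the gene body, rose by 0.24 (a call lost on summing, 0.02, and on scaling, 0.17), and region 22, in the body of ANKUB1, fell by 0.24 on the log2 scale.

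At the target genes AMOTL2, CCN1 and ANKRD1, the regions that rose or fell lay away from the start sites. AMOTL2 region 3 (chr3:134324975-134332005) lies 46.0 kb downstream of the AMOTL2 start, over an exon of the noncoding gene LINC02004. Its fold enrichment was 15.4 and 16.9 against 24.0 and 25.5 in MDA-MB-231 control lists, and 11.8 and 11.3 against 17.3 and 19.2 in those of Hs578T. The treated lists were 1.53 and 1.58 times the untreated ones, without overlap, and the 8 Fn14 KO lists lay at 10.5 to 13.6. The change was 0.60 (SE 0.09, limma adjusted p = 5.93e-08) and its difference between genotypes 0.66 (adjusted p = 3.47e-05). The AMOTL2 start site, at 13.1 and 10.6 against 10.1 and 10.8 and at 7.58 and 7.49 against 7.44 and 7.69, did not pass. AMOTL2 region 1, farther downstream, rose by 0.32 over both lines, a call that was lost (0.20) without the TWEAK replicate 1 list of MDA-MB-231 control cells. Its treated mean was 1.66 times the untreated one in MDA-MB-231 control cells and 0.985 times in those of Hs578T, so only MDA-MB-231 rose.

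CCN1 had regions of both directions around a start site that did not pass. Region 6 (chr1:85604718-85615635, 29.4 kb downstream) read 25.04 and 22.3 against 29.9 and 31.1 in MDA-MB-231 control lists, and 28.6 and 25.9 against 34.8 and 38.4 in those of Hs578T (0.39, SE 0.08, limma adjusted p = 9.82e-05). Region 1 (chr1:85543201-85547333), in the body of DDAH1 35.5 kb upstream, read 11.6 and 12.8 against 6.87 and 6.17, and 16.3 and 14.9 against 8.77 and 13.9 (−0.64, SE 0.10, limma adjusted p = 2.71e-07). Treated lists lay above untreated ones in region 6 and below them in region 1, in both lines. Region 2, also in DDAH1 and 27.7 kb upstream, read 11.5 and 12.1 against 7.05 and 6.93, and 14.1 and 11.3 against 9.30 and 10.9 (−0.49, limma adjusted p = 1.60e-05). The CCN1 start site read 38.1 and 38.2 against 36.6 and 35.4 in MDA-MB-231 and 33.5 and 28.8 against 28.6 and 31.7 in Hs578T. ANKRD1 region 4, 39.6 kb upstream, fell by 0.22 on the log2 scale, a call lost without any one of 10 of the 16 lists, and no other ANKRD1 region passed.

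**Figure D5:**
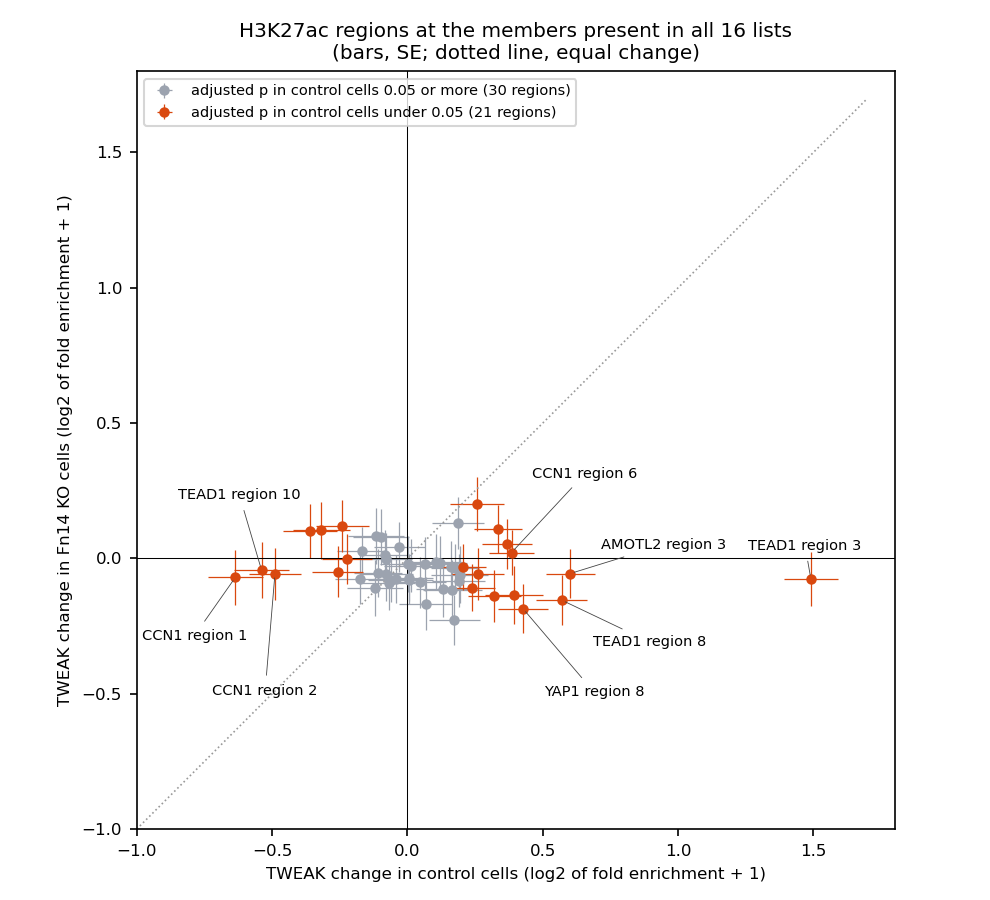
TWEAK effect (log2 change of fold enrichment + 1.0) in control cells on the horizontal axis and in Fn14 KO cells on the vertical axis, one point with SE bars for each of the 51 regions with a peak in all 16 lists, orange where the control effect passed the test. TEAD1 region 3 stands at 1.49 on the control axis, AMOTL2 region 3 at 0.60 and CCN1 region 1 at −0.64, and no region passed the test on the Fn14 KO axis.

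In Fn14 KO cells no member passed the test for an effect of TWEAK on any of these measures. In the limma fits, 0 of 10 members passed in covered length, where 0.0% of all genes did (318 genes and 0 members had an unadjusted p under 0.05), and 0 of 10 at the start site, where 0.0637% did (8 genes; 351 genes and 0 members had an unadjusted p under 0.05). Of the 51 regions 0 passed, as for 0.0% of all regions (861 regions, 3 of them at the members, had an unadjusted p under 0.05). The exact permutation test called 0 genes in each of these comparisons of genes, and over 36 arrangements could not give a p under 0.0556. By order alone, WWTR1 was the 1 member whose covered length was below in all TWEAK lists of both Fn14 KO lines (1.81% of all genes). Above were 0 members (0.737%). The WWTR1 change was −0.20 (SE 0.11) in Fn14 KO cells and −0.14 (SE 0.11) in control cells on the log2 scale, and neither passed the test. The difference of the TWEAK effects between genotypes was called at 15 of the 51 regions, 9 with a more positive change in control cells and 6 with a more negative one, where 20.5% and 8.5% of all regions were. These counts were 6 and 6 with lists scaled to their median and 6 and 5 with summed fold enrichment. In covered length it was called at 0 of 10 members (4.93% of all genes; 2 members had an unadjusted p under 0.05).

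Whether the 2 lines responded differently was tested as well. Of the members, 0 differed between lines in the TWEAK effect on covered length (0.0949% of all genes did; 0 members had an unadjusted p under 0.05) and 0 in that at the start site (0.279%; 1 member had an unadjusted p under 0.05). These limma counts do not show that the lines acted alike, since CCN2 at its start site fell without overlap in only 1 of them. Without TWEAK, Fn14 KO and control cells differed in covered length at 0 members (0.575% of all genes; 1 member had an unadjusted p under 0.05). At the start site CCN2 was lower in Fn14 KO cells (log2 difference −0.46, SE 0.13, limma adjusted p = 0.0465), 1 member beside 9.67% of all genes, with the median of all genes at −0.12. Its Fn14 KO lists were lower in MDA-MB-231 and overlapped with control lists in Hs578T, and the call was lost once lists were scaled to their median (limma adjusted p = 0.0952). The untreated MDA-MB-231 control lists had the joined peak (13.2 and 11.9). The untreated Fn14 KO lists of that line had separate peaks (6.15 and 5.24 at the start site), so this call too depends on how peaks were joined. By region, 2 of 51 were lower in untreated Fn14 KO cells (12.1% of all regions differed): TEAD1 region 16 (−0.36) and TEAD2 region 2 (−0.30). With lists scaled to their median, 1 of the 51 was called. TEAD2 region 2 was lower in MDA-MB-231 (means of 7.17 in control and 3.84 in Fn14 KO cells) but not in Hs578T (4.14 and 4.73). It is the TEAD2 start-site peak, which did not pass in the fit over start sites (limma adjusted p = 0.09015). Between the lines 18 of 51 regions differed (29.1% of all), 14 lower and 4 higher in Hs578T.

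Some regions appeared or vanished altogether. A region counted as gained if, in cells of the same line and genotype, a peak was called in each treated list but in no untreated one, and as lost in the reverse case. Of the 89 regions, 6 were gained and 5 lost in MDA-MB-231 control cells (5.58% and 4.49% of all regions), and 5 and 5 in Hs578T control cells (5.09% and 4.65%). In Fn14 KO cells 0 were gained and 2 lost in MDA-MB-231 (0.321% and 1.35%) and 2 gained and 2 lost in Hs578T (1.05% and 0.829%). The shares in control cells at these genes were near those of all regions.

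The same 3 regions were gained in both control lines, and had no peak in any of the other 12 lists. The first was WWTR1 region 8 (chr3:149550457-149552918, in an intron), with fold enrichments of 4.75 and 4.89 in the TWEAK-treated lists of MDA-MB-231 and 2.74 and 3.33 in those of Hs578T. In TEAD1 region 6 (chr11:12731531-12732520, 57.6 kb inside the gene) they were 2.89 and 2.62, and 3.26 and 4.6. In TEAD4 region 1 (chr12:2911261-2912593, 47.5 kb upstream in the body of TULP3) they were 3.80 and 4.23, and 3.89 and 3.45. These are low peaks compared with the list medians of 4.998 to 5.89, and an absent peak means that the caller's threshold was not passed, not that acetylation was absent. YAP1 region 6 (chr11:102155516-102158464, in an intron) was the 1 region lost in both control lines. It had 2.45 and 2.88 in the untreated lists of MDA-MB-231 and 2.93 and 3.53 in those of Hs578T, and was present in 7 of 8 Fn14 KO lists. Other regions were gained or lost in control cells of one line only. YAP1 region 14 (2.78 and 3.12) and TEAD4 region 2 (3.16 and 3.31) appeared in MDA-MB-231 control cells and had peaks in lists of other groups too. TEAD4 region 2 was also gained with TWEAK in Hs578T Fn14 KO cells, where the other region gained was AMOTL2 region 4. AMOTL2 region 5 (4.23 and 4.24) and AMOTL2 region 7 (4.81 and 4.0) appeared in Hs578T control cells, and had no peak in the 8 Fn14 KO lists. Lost in MDA-MB-231 control cells were WWTR1 region 7 (3.47 and 4.65 untreated), WWTR1 region 20 (4.55 and 3.78), TEAD3 region 6 (3.37 and 2.94) and TEAD4 region 3 (2.74 and 2.91). Those lost in Hs578T control cells included YAP1 region 10 (2.82 and 2.99), TEAD1 region 14 (2.82 and 2.9) and TEAD3 region 1 (5.02 and 4.08). Of the 17 regions gained or lost in a control line, none therefore had a fold enrichment above 5.35 in any list. Among all regions, 1367 were gained and 742 lost in both control lines.

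Beside the members, 2 further lists of genes gave the surroundings of the pathway. Of 20 upstream genes and cofactors, 19 could be tested in covered length, and with TWEAK in control cells 0 rose and 3 fell: PTPN14 (−0.43) and VGLL4 (−0.24), which restrain YAP or TEAD, and AMOTL1 (−0.46), which binds YAP. Among all genes 17.9% were called in covered length and 17.5% at the start site. At the start site 3 of 17 rose (WWC1 by 0.88 and VGLL4 by 0.29 among them) and 2 fell (AMOTL1 −0.61 and LATS2 −0.45, a Hippo kinase). PTPN14 was the other gene that rose at the start site, so both VGLL4 and PTPN14 had a shorter covered length and a higher start site. Of 18 other target genes, all tested in both measures, 2 rose in covered length (NUAK2 0.53 and FJX1 0.37) and 2 fell (FOXF2 −0.46 and IGFBP3 −0.34). At their start sites 3 rose (GADD45A 0.52, NT5E 0.31 and ASAP1 0.29) and 2 fell (CRIM1 by −0.36, and FOXF2, which thus fell in both measures). The median changes of the upstream genes were −0.08 in covered length and 0.07 at the start site, those of the other targets −0.06 and 0.07, and those of all genes −0.05 and 0.03. In Fn14 KO cells 0 genes of either list passed, with 0 at an unadjusted p under 0.05. The TWEAK effect differed between genotypes in covered length at AMOTL1 (−0.47) and NUAK2 (0.62), and at the start sites of WWC1 (1.04), GADD45A (0.64), AMOTL1 (−0.64), ASAP1 (0.40) and VGLL4 (0.37). WWC1 encodes KIBRA, an upstream activator of the Hippo kinases, and NUAK2 is a kinase and YAP target.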

How the data were processed

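H3K27ac ChIP-seq peak lists of 16 cell-line samples were used, 2 for each of 8 groups of line, genotype and treatment. The authors used FastQC for read quality, Trimmomatic for adaptors, Bowtie2 for alignment (hg38), MACS2 for peaks of each sample after subtraction of input, and bedtools to take out blacklisted regions. Tool versions are not given in the sources used here. The deposited lists hold a score, a fold enrichment (a ratio over background) and −log10 p and −log10 q values for each broad peak, and of these only the fold enrichment and the −log10 q values entered results. Reads per library are not in the lists, so counting errors could not be given.

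For each of 20046 protein-coding genes of GENCODE 44, the length covered by peaks in the gene body extended by 50 kb, and the highest fold enrichment within 2.0 kb of the MANE Select start (19061 genes had one), were computed in Python 3.11.15 (pandas 2.3.3, NumPy 2.4.6). Peaks of all lists were merged into 64545 regions, of which 55219 had a peak in at least 2 lists. Values were tested as log2(value + 1.0) with limma 3.58.1 (R 4.3.3, eBayes with a trend), fitting the 8 group means to all 16 lists for every gene with a peak in at least 2 lists, with Benjamini-Hochberg adjustment over all features tested and a threshold of 0.05. A pseudocount of 1.0 understates the change of low values. TWEAK effects were averaged over both lines. The fits over regions with a peak in all 16 lists, the summed fold enrichment and the description of the CCN2 peaks were chosen after the data were seen, and the regions named from these fits were chosen after their values were seen. The scripts were tested on simulated data.

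The 10 genes, the 2 further lists (20 upstream genes and cofactors, 18 other targets), the markers and the windows were chosen with earlier results of these data known. All 10 genes are described, and of the further lists at most 4 genes per list and comparison are named, those with the smallest adjusted p. PTPN14 and FOXF2 at the start site are named besides, as they were also called in covered length. Alternatives were another window (10.0 kb or 1.0 kb), any protein-coding start, lists trimmed to 39544 peaks, peaks with a −log10 q of at least 8.38 (the pooled median), scaling to a list's total covered length or median fold enrichment, no filter on low values, a pseudocount of 0.1, a replicate block, leaving out each list, an exact two-sided permutation test, and for regions an overlap of 50%.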

Additional observations from a re-analysis of the deposited data

Results flagged for a closer look

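The TWEAK effects of control and Fn14 KO cells differed from each other, by the test of the difference itself (limma across all genes or all 28337 regions, both lines averaged), at 1 start site and 15 of 51 regions of the 10 genes. Among all start sites 7.32% were called, and among all regions 20.5% with a more positive and 8.5% with a more negative change in control cells, so the share at these genes was near that of all regions. At the CCN2 start site the difference, control minus Fn14 KO, was −0.74 on the log2 scale, a value that moved with how the peaks were called.

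TEAD1 held 4 of the regions. Region 3 stood apart with 1.57 (1.49 in control and −0.08 in Fn14 KO cells), region 8 had 0.72 (0.57 and −0.15), region 9 had 0.53 (0.39 and −0.14) and region 10 had −0.50 (−0.54 and −0.04). YAP1 region 8 had 0.61 (0.43 and −0.18).

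Of the target genes, AMOTL2 region 3 had 0.66 (0.60 and −0.06) and region 1 had 0.46 (0.32 and −0.14). In AMOTL2 region 1 the control rise lay in MDA-MB-231 only (1.66 times the untreated mean, against 0.985 in Hs578T). CCN1 region 1 had −0.57 (−0.64 and −0.07), region 2 had −0.43 (−0.49 and −0.06) and region 6 had 0.36 (0.39 and 0.02). ANKRD1 region 3 had 0.40, made of 0.17 in control and −0.23 in Fn14 KO cells, neither of which passed the test alone.

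Smaller differences stood at WWTR1 region 10 (0.35) and region 22 (−0.36), at TEAD2 region 2 (−0.46), the peak shared with DKKL1, and at TEAD4 region 5 (−0.42), the TSPAN9 start. TEAD2 region 2 is the TEAD2 start-site peak, and the same difference did not pass in the fit over start sites (limma adjusted p = 0.0856). The calls of WWTR1 regions 10 and 22 and TEAD4 region 5 were each lost without any one of 8 of the 16 lists, and that of ANKRD1 region 3 without any one of 5. In MDA-MB-231 the fold enrichments of whole lists also differed between genotypes, and the part of this in the values above was not tested.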

How the results depend on the processing

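With 2 lists per group, calls of single genes were close to the threshold. Of 123 values of single genes under other settings than leaving out a list, 83 kept direction and side of the threshold, 40 kept direction only and 0 reversed. Of 144 such values of regions 123, 19 and 2 did, and the 2 that reversed did so when fold enrichment was summed over the region: TEAD3 region 4 with TWEAK (−0.14) and ANKRD1 region 3 between genotypes (−0.062). The cause was not tested. With summing, 8 regions rather than 13 rose with TWEAK. Without any single list, the TWEAK calls of TEAD1 regions 3, 5, 8 and 10, AMOTL2 region 3, YAP1 region 8 and CCN1 regions 1, 2 and 6 were kept, and that of TEAD1 region 3 ranged from 1.44 to 1.54. The CCN2 start-site calls were lost without 4 (TWEAK), 9 (genotype difference) and 14 (untreated Fn14 KO against control) of the 16 lists.

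Members called by covered length with TWEAK in control cells (2) were 0 with peaks at or above the median −log10 q, 5 with lists trimmed to equal peak number, 5 when scaled and 0 by permutation, and 0 to 4 without 1 list. The genotype difference gave 1 when scaled and 0 to 3 without 1 list, and the line difference (1) gave 0 with stricter peaks, a 10.0 kb extension, scaling or permutation, and 0 to 1 without 1 list. At the start site, TWEAK calls (2) were 1 with stricter peaks or no filter, 0 by permutation and 0 to 3 without 1 list. The genotype difference (1) was 0 without the filter and by permutation, and 0 to 2 without 1 list; the difference between lines in the TWEAK effect was 1 with stricter peaks. Untreated Fn14 KO against control (1) gave 0 without the filter, with a pseudocount of 0.1, when scaled and by permutation, and 0 to 4 without 1 list, and Hs578T against MDA-MB-231 (7) gave 0 by permutation and 3 to 8 without 1 list. The exact permutation tests over 36, 6 and 1296 arrangements cannot give a p under 0.0556, 0.333 and 0.00154, so they could not pass the adjustment in most comparisons.

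The regions that MDA-MB-231 control cells gained (6) were 2 with 50% overlap, 1 with stricter peaks and 3 within 10.0 kb, and lost ones (5) were 3 and 3 with the last 2. In Hs578T control cells gained ones (5) were 2 with stricter peaks, and lost ones (5) 0, 2 and 3 with stricter peaks, trimmed lists and 10.0 kb. In MDA-MB-231 Fn14 KO cells lost ones (2) were 1 under each of these, and in Hs578T Fn14 KO cells gained ones (2) were 1 with 50% overlap and 0 under the 3 others, and lost ones (2) 1 with stricter peaks or trimmed lists. Genes with TWEAK lists above in covered length (1, TEAD4) were 0 with stricter peaks and 2 with trimmed lists, and TEAD4 turned to below with stricter peaks and with 10.0 kb. Without 1 list, the gained and lost counts were 6 to 8 and 5 to 8 (MDA-MB-231 control), 0 to 2 and 3 to 7 (its Fn14 KO), 6 to 7 and 5 to 10 (Hs578T control), and 3 to 5 and 2 to 4 (its Fn14 KO). The regions that rose and fell with TWEAK were 9 to 14 and 4 to 8, and those that differed between genotypes 6 to 12 and 3 to 6.

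In covered length, replicate differences of 12 pairs of groups correlated at −0.205 to 0.105. Whether lists of the same replicate number were made together is not given. With the replicate block, members called were 1 (TWEAK) and 0 (lines) in covered length and 1 (TWEAK) and 0 (untreated Fn14 KO against control) at the start site, and all-gene counts went from 3206 to 2575 and from 2192 to 1899 for TWEAK in control cells. Over all genes, covered-length calls ranged from 1941 to 5312 (3206) for TWEAK in control cells, 0 to 37 (0) in Fn14 KO cells, 568 to 2683 (883) for the genotype difference, 7 to 90 (17) for the difference between lines in the TWEAK effect, 54 to 643 (103) for untreated Fn14 KO against control and 335 to 1920 (951) between lines. Start-site calls in Fn14 KO cells ranged from 7 to 89 (8), those for the difference between lines in the TWEAK effect from 28 to 118 (35), and those of untreated Fn14 KO against control fell to 384 (1215) when scaled. Scaling moved the share of calls that were higher from 62.9% to 42.4% (start site, TWEAK), 71.4% to 52.9% (start site, genotype difference), 83.3% to 43.8% (covered length, lines) and, over regions, from 61.8% to 48.9% (TWEAK) and 70.7% to 58.1% (genotype difference), and the members' rises and falls with TWEAK from 13 and 8 to 9 and 10.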
